A study of Bos taurus with 7 samples.

Results

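The miRNAs described here are the 6 mature products of the bovine cluster that runs from miR-17 to miR-92a and of its X-chromosomal paralogue that were chosen by name: bta-miR-17-5p, bta-miR-20a, bta-miR-106a, bta-miR-19a, bta-miR-19b and bta-miR-92a. They are 6 of the 744 bovine miRNAs on the array, and every non-control spot carrying one of these names was read. The samples were plasma of 7 Japanese-Black cows, bled 21 days after artificial insemination in a controlled oestrus. The first group was 4 cows labelled pregnant (numbers 1 to 4) and the second 3 cows labelled non-pregnant (numbers 1, 3 and 4), with no other treatment named. Each cow had 1 one-colour array, so n is the number of cows, and the question of the design was whether circulating miRNAs differed between the 2 states at that day.

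The cluster is a polycistron: a single primary transcript is cut into several hairpins, each of which gives a mature miRNA. The products fall into families by their seed, the stretch near the 5′ end that pairs with target mRNAs. miR-17-5p, miR-20a and miR-106a share the miR-17 seed, miR-19a and miR-19b share the miR-19 seed, and miR-92a shares its seed with miR-25. The cluster is known for promoting cell proliferation, for being switched on by MYC and E2F, for repressing the pro-apoptotic BIM, and for roles in blood cell development. Its products circulate in plasma, where they can come from blood cells, platelets and endothelium.

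In these plasma samples miR-20a, miR-19b and miR-92a were called detected by the scanner software in all 7 cows. miR-19a was called in 6 cows, miR-17-5p in 5, and miR-106a in 2. The mean signals of miR-19b and miR-20a were higher in the pregnant cows, by 1.18 and 1.00 on the log2 scale after scaling between arrays, while that of miR-92a was higher by 0.41. No member passed the test, and no scaled level of a member separated the groups. The difference of each tested member except miR-19b turned negative with normexp background correction. That was not particular to the members: only 8 of the 88 miRNAs tested (9.09%) had a positive difference with normexp.

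The array reads each miRNA through a pair of probes of different length, and how far members can be told apart depends on these sequences. The longer probe of each member is printed 5′ to 3′, grouped by seed family. Capitals mark the bases at which a probe differs from its relatives in the same group. The last sequence is that of miR-25, the relative of miR-92a on another cluster.
bta-miR-17-5p: actacctgcactGtaagc
bta-miR-20a: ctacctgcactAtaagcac
bta-miR-106a: tacctgcactGtaagca
bta-miR-19a: tcagttttgcatAgatttgca
bta-miR-19b: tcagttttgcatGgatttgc
bta-miR-92a: AcagGccgGgacaagt
bta-miR-25: TcagAccgAgacaagtgc

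The probes of miR-19a and miR-19b differed at 1 base over a shared stretch of 20, written A13G with the miR-19a base first and positions counted from the 5′ end of its probe. Those of miR-17-5p and miR-20a likewise differed at 1 base over 17 (G13A, positions from the 5′ end of the miR-17-5p probe). The probe of miR-106a had no mismatch to that of miR-17-5p over a shared run of 16 bases. The 16-base probe of miR-106a lay whole within the 18-base probe of miR-17-5p, so the levels of these 2 miRNAs are uncertain as separate measurements. By contrast miR-92a and miR-25 differed at 3 bases (A1T, G5A and G9A, positions from the 5′ end of the miR-92a probe). In every pair of probes the shorter one lacked only the last base of the longer one.

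The files place the longer probes on UMD 3.1 (bosTau6) and give no strand. Those of miR-17-5p, miR-19a, miR-20a, miR-19b and miR-92a lay in this order on chromosome 12, at chr12:66226574-66226590, chr12:66226887-66226906, chr12:66227017-66227034, chr12:66227189-66227208 and chr12:66227308-66227323. The probe of miR-106a was placed at chrX:17918544-17918560. The probes of miR-19b and miR-92a had a further place there, at chrX:17918066-17918085 and chrX:17917903-17917918. The files also place the probes of miR-92a and miR-106a on an unplaced scaffold, and the spans written for miR-17-5p, miR-19a and miR-20a are 1 base shorter than their probes. Since the array cannot tell these copies apart, the signals of miR-19b and miR-92a can hold product of either chromosome.

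The RefSeq annotation of ARS-UCD2.0, used for names and neighbours only, lists MIR17, MIR18A, MIR19A, MIR20A, MIR19B and MIR92A-1 in a row on chromosome 12, between SLITRK5 and GPC5. On X it lists MIR363, MIR92A-2, MIR19B-2, MIR20B, MIR18B and MIR106A in a row. Of the miRNAs listed for the X copy alone, miR-363, miR-20b and miR-18b were not called detected in any cow, and miR-106a was called in 2 cows. miR-18a, the remaining product of the chromosome 12 copy, was also not called in any cow. Of the 744 miRNAs on the array 620 were called in no cow, so being uncalled was not particular to these products.

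The 7 arrays lay on 1 slide and were scanned on 1 day, and all pregnant cows were in row 1 of it and all non-pregnant cows in row 2. Position on the slide and pregnancy status thus cannot be told apart. The arrays differed in brightness. The signal summed over miRNAs was 39153, 34361, 101000 and 23641 in pregnant cows 1 to 4, and 12010, 70396 and 58360 in non-pregnant cows 1, 3 and 4. Non-pregnant cow 1 had the dimmest array, with 45 miRNAs called detected against 81 to 101 on the others. A higher call rate of dim miRNAs in the pregnant group therefore has that array beside it. The array gives no measure of cell number, so in plasma a larger number of cells that release a miRNA and a larger amount released per cell cannot be told apart.

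Of the 6 members, pregnant cows 1 to 4 had 5, 6, 5 and 6 called detected, and non-pregnant cows 1, 3 and 4 had 3, 5 and 4. The mean was 5.5 ± 0.577 (SD, n = 4) against 4.0 ± 1.00 (SD, n = 3), and the ranges met at 5. Over all 744 miRNAs on the array, 90, 93, 101 and 91 were called in the pregnant cows. In the non-pregnant cows 45, 84 and 81 were called, so more calls in the pregnant cows were not particular to the members. The stricter call, at least 1 probe well above background in over 50% of its spots, gave 3, 6, 3 and 5 members in the pregnant cows and 1, 3 and 3 in the non-pregnant cows. Pregnant cow 2 was the only one with all 6 well above background. No count of the stricter call over all miRNAs is given here, so whether its pattern was particular to the members cannot be told.

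**Figure D1:**
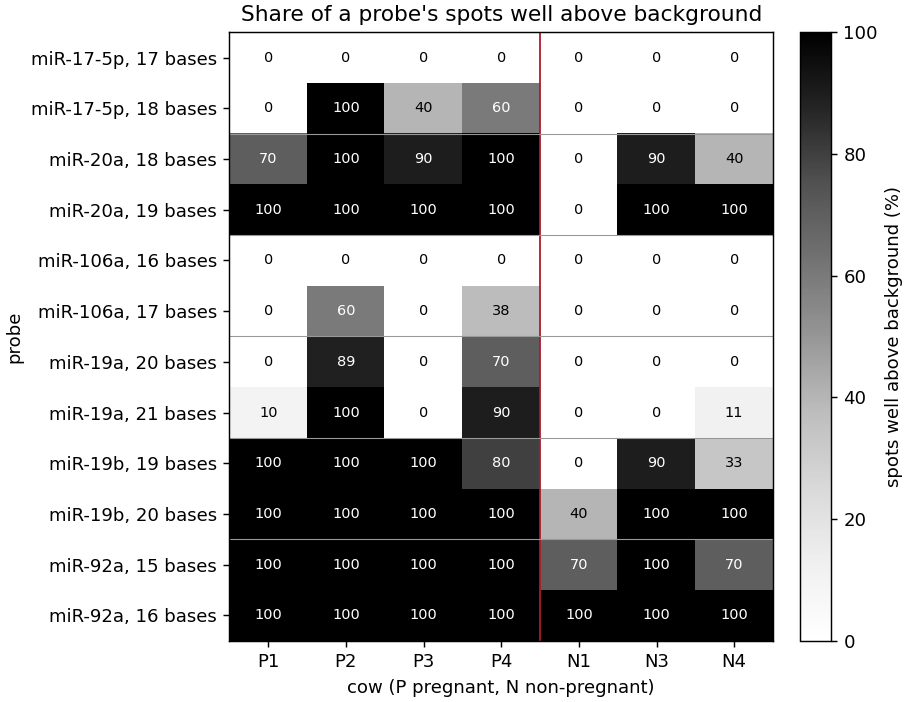
Share of spots well above background (percent, grey scale and number) for each member probe (rows, with its length in bases) in each cow (columns). Both probes of miR-92a passed the 50% mark in all 7 cows, while the shorter probes of miR-17-5p and miR-106a did not in any.

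Of the miR-17 seed family, miR-20a was detected throughout and miR-17-5p and miR-106a were not. The software signal is the intensity that the software gives per miRNA, on the linear scale and before any scaling between arrays. It is not the plain sum of the probe means over spots given below. For miR-20a the software signal was 14.2, 37.1, 23.6 and 41.0 in pregnant cows 1 to 4. In non-pregnant cows 1, 3 and 4 it was 4.27, 13.9 and 13.1. The groups did not overlap, but pregnant cow 1 lay next to non-pregnant cow 3. The means were 29.0 ± 12.4 (SD, n = 4) and 10.4 ± 5.35 (SD, n = 3).

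miR-17-5p, the first product of the cluster, had a software signal of 3.56, 11.04, 6.09 and 8.09 in the pregnant cows. In non-pregnant cow 3 it was 3.25, and in the other two it was not called and is listed at 0.1, the value the software gives an undetected miRNA. The groups did not overlap, and again the gap was narrow, between pregnant cow 1 and non-pregnant cow 3. The mean over spots of the 18-base probe was 5.37, 16.6, 9.18 and 12.2 in the pregnant cows and 0.0665, 4.90 and 4.91 in the non-pregnant cows. The 17-base probe gave no more than 1.60 in any cow. The spots of the 18-base probe spread more in pregnant cow 4 (SD 7.09 over 10 spots) than in the other cows, where the SD was 0.753 to 1.84.

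miR-106a, the product of the X-chromosomal copy with the miR-17 seed, was called detected only in pregnant cows 2 and 4, at 6.10 and 7.14. In the other 5 cows, pregnant 1 and 3 among them, it was listed at 0.1. Cows 2 and 4 were also the pregnant cows with the higher miR-17-5p and miR-20a signals, and the probe overlap given above applies to miR-17-5p.

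In the miR-19 family, miR-19b had a software signal of 27.0, 62.2, 37.6 and 46.5 in the pregnant cows. In the non-pregnant cows it was 5.82, 21.5 and 20.1. Every pregnant cow lay above every non-pregnant cow, with means of 43.3 ± 14.9 (SD, n = 4) and 15.8 ± 8.65 (SD, n = 3). For its 20-base probe the mean over spots ran from 28.4 to 64.9 in the pregnant and from 8.77 to 23.9 in the non-pregnant cows.

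miR-19a had a software signal of 4.18, 21.1, 4.47 and 18.7 in the pregnant cows, with pregnant 2 and 4 about the same and far above pregnant 1 and 3. It was not called in non-pregnant cow 1 and was 3.48 and 3.85 in non-pregnant cows 3 and 4. The groups did not overlap, though pregnant cows 1 and 3 lay close to the latter values.

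miR-92a, the last product of the cluster, had a software signal of 72.7, 54.6, 99.3 and 48.1 in the pregnant cows and 28.6, 61.2 and 36.2 in the non-pregnant cows. Here the groups overlapped, since non-pregnant cow 3 lay above pregnant cows 2 and 4. The means were 68.7 ± 22.9 (SD, n = 4) and 42.0 ± 17.1 (SD, n = 3). The order of the cows was different from that of the other families: pregnant cow 3 was the highest for miR-92a, whereas pregnant 2 or 4 was the highest for each of the other 5 members.

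**Figure D2:**
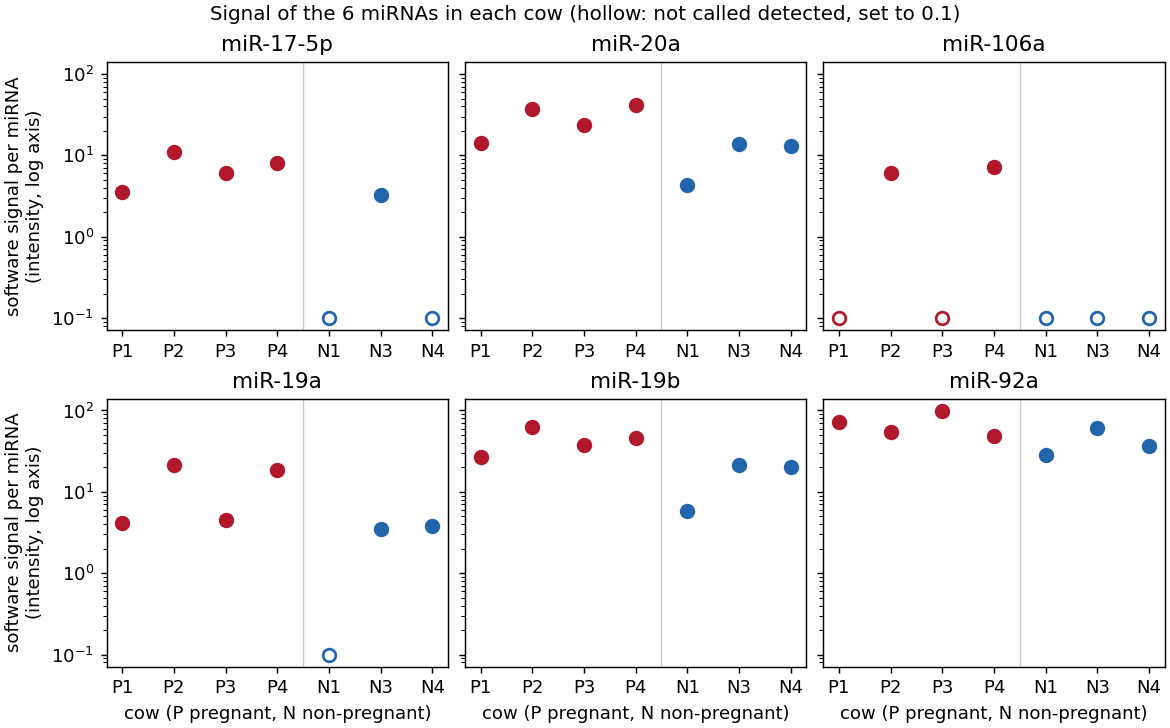
Software signal of each member by cow on a log axis (intensity, unscaled), with pregnant and non-pregnant cows in separate colours and undetected values drawn at 0.1. The groups do not overlap for miR-17-5p, miR-20a, miR-19a and miR-19b and overlap for miR-92a and miR-106a.

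These non-overlapping signals were read against all miRNAs tested, that is, the 88 called detected in at least 3 cows. Among these 88, 13 (14.8%) had a software signal higher in every pregnant than in every non-pregnant cow, and 4 of the 5 members tested were among them. miR-106a, in 2 cows, was not tested. miR-17-5p and miR-19a were called in all 4 pregnant cows, so they met that minimum through the pregnant group alone, and the count is a description only.

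The separation was not kept in the level averaged over probes, floored and scaled. For miR-17-5p and miR-19a the groups already overlapped in the floored level before scaling, and for miR-19b and miR-20a they overlapped after it. Each array was divided by the 75th percentile of its probes detected on all arrays and values under a scaled floor (log2 -6.36) were raised to it. The scaled log2 level of miR-19b was then -5.02, -3.35, -5.81 and -3.78 in the pregnant cows and -5.33, -5.91 and -5.76 in the non-pregnant cows. Pregnant cow 3, whose array was the brightest, fell among the non-pregnant cows. miR-20a had scaled log2 levels of -5.86, -4.03, -6.27 and -3.78 in the pregnant cows, and of -5.37, -6.36 (the floor) and -6.23 in the non-pregnant cows. In both miRNAs pregnant cows 2 and 4 were the highest. Pregnant cow 1 lay above the non-pregnant cows for miR-19b and under non-pregnant cow 1 for miR-20a. In non-pregnant cow 1 no probe of either miRNA was well above background, and its array had the smallest scaling divisor (172). The scaled levels of that cow, the highest of its group for both, thus rest on signals near background.

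The scaled log2 level of miR-92a was -3.69, -3.68, -4.69 and -3.77 in the pregnant cows and -3.20, -4.72 and -5.18 in the non-pregnant cows. The highest cow was non-pregnant 1, the one with the dimmest array. miR-19a and miR-17-5p were above the floor only in pregnant cows 2 and 4, at -4.83 and -4.90 for miR-19a and at -5.55 and -5.73 for miR-17-5p. miR-106a was above it in the same cows, at -5.98 and -5.82. The scaled levels of every member overlapped between the groups, and of the 88 tested miRNAs 1 (1.14%) was higher in every pregnant than in every non-pregnant cow.

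In the fit over all 88 miRNAs (limma, Benjamini-Hochberg adjustment), 0 passed an adjusted p of 0.05 (0%), the smallest adjusted p was 0.743, and 1 (1.14%) had an unadjusted p under 0.05, which was no member. For miR-19b the scaled level was higher in pregnant cows by 1.18 (SE 0.61, 95% interval -0.31 to 2.66), 2.26-fold, with a limma p of 0.102 and an adjusted p of 0.743. Its 19-base probe was at the floor in pregnant cow 3 and in all non-pregnant cows, so this difference and its fold depend on the floor. The difference was 0.82 with the floor doubled and 1.44 with the floor halved. For miR-20a the difference in log2 level was 1.00 (SE 0.71, interval -0.72 to 2.72, limma adjusted p = 0.743). The interval of each runs from a decrease to an increase, so neither a difference nor its absence was shown. Without pregnant cow 4 the difference of miR-20a was 0.60, and with the floor doubled it was 0.63. In the deposited log2 table, where no value was missing for these 2 miRNAs, it was 1.54. That table holds the software signal without scaling between arrays, and from the scaled software signal the difference of miR-20a was 0.91.

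For miR-92a the log2 difference was 0.41 (SE 0.52, 95% interval -0.85 to 1.68, limma adjusted p = 0.814). It depended on single cows: it was 0.0038 without non-pregnant cow 4 and 0.997 without non-pregnant cow 1. For miR-19a the difference was 0.75 (SE 0.46, interval -0.37 to 1.87, limma adjusted p = 0.743) and for miR-17-5p 0.36 (SE 0.24, interval -0.21 to 0.93, limma adjusted p = 0.743). In the 3 non-pregnant cows both lay at the floor throughout, as 18 of the 88 tested miRNAs did (20.5%), so their differences could not be negative and depend on the floor. With the floor doubled they were 0.25 for miR-19a and 0.11 for miR-17-5p. From the software signal, here scaled between arrays and with undetected values raised to a floor of its own, they were 1.63 and 1.25. miR-17-5p was undetected in non-pregnant cows 1 and 4 and miR-19a in non-pregnant cow 1, so these values also depend on a floor. On the main scaled level without pregnant cow 2 the differences were 0.49 for miR-19a and 0.21 for miR-17-5p. In no non-pregnant cow was a probe of miR-19a, miR-17-5p or miR-106a well above background. No fold is given for these 3 miRNAs, since their means in the pregnant cows hold values raised to the floor in pregnant cows 1 and 3.

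All 5 tested members had a positive difference on the scaled level, as had 62 of the 88 miRNAs (70.5%), but with normexp 4 of the 5 turned negative. Of these members, miR-19a and miR-17-5p could only give a positive difference or 0, because the floor set their level in the whole non-pregnant group. The members' median difference was 0.75 in log2 level against 0.18 over all 88. That member median is the value of miR-19a and depends on the floor. With the floor doubled the medians were 0.28 for the members and 0.016 over all, and with it halved 1.09 and 0.29. With normexp background correction, which adds an offset of 50 to each spot, 8 of the 88 miRNAs (9.09%) were positive and the median over all was -0.19. Of the members, miR-19b was then at 0.083, miR-20a at -0.036, miR-92a at -0.042, miR-19a at -0.12 and miR-17-5p at -0.20.

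Without scaling between arrays, the log2 level of miR-19b and miR-20a was higher in every pregnant than in every non-pregnant cow, as it was for 8 of the 88 miRNAs (9.09%). The unscaled differences were 1.21 for miR-19b (limma adjusted p = 0.336) and 1.03 for miR-20a (limma adjusted p = 0.369), against a median of 0.20 over all 88. For miR-92a the unscaled difference was 0.72 (limma adjusted p = 0.475). Scaling to the 30 less GC-rich of the 57 probes left 56 of the 88 miRNAs positive (63.6%), all 5 tested members among them. Quantile scaling gave 0.95, 0.78 and 0.083 for miR-19b, miR-20a and miR-92a. The order of the 3 differences, miR-19b, then miR-20a, then miR-92a, was the same with each of these scalings, but their own intervals overlap widely.

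**Figure D3:**
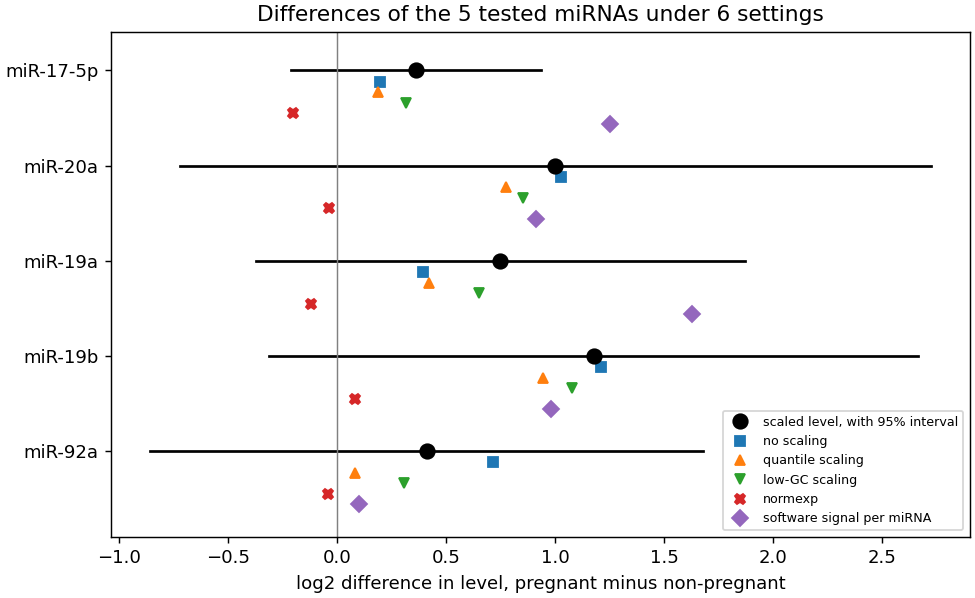
Difference in log2 level, pregnant minus non-pregnant, for the 5 tested members under 6 settings, with the 95% limma interval drawn for the scaled level. All points lie right of 0 except those with normexp, where only that of miR-19b does.

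Ratios between members of different families were also compared within an array, 1 member per seed, each ratio only between cows. The scaling divisor cancels in such a ratio only where no probe is at the floor. The 19-base probe of miR-19b was at the floor in pregnant cow 3 and in all of the non-pregnant cows, and the 18-base probe of miR-20a in pregnant cow 3 and non-pregnant cows 3 and 4, so the ratios in these cows still depend on the scaling and the floor. The log2 ratio of miR-19b to miR-92a was -1.34, 0.33, -1.12 and -0.012 in the pregnant cows and -2.13, -1.19 and -0.58 in the non-pregnant cows. Pregnant cows 2 and 4 were again the highest, and pregnant 1 and 3 lay among the non-pregnant cows. The mean ratio was higher in the pregnant cows by 0.76 (exact permutation test over 35 splits, two-sided, p = 0.257, and 0.514 adjusted over the 3 ratios). This difference was 0.12 with normexp, 0.54 with the floor doubled and 1.03 with the floor halved. From the software signal, where these miRNAs were called in all 7 cows and none of their values was raised to a floor, it was 0.88.

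The log2 ratio of miR-20a to miR-92a was -2.17, -0.35, -1.58 and -0.0096 in the pregnant cows and -2.17, -1.64 and -1.04 in the non-pregnant cows, a difference of 0.59 (exact permutation p = 0.400, adjusted 0.514). It was 0.0060 with normexp, 0.34 with the floor doubled and 0.81 from the software signal. That of miR-20a to miR-19b ran from -0.84 to 0.0023 in the pregnant cows and from -0.46 to -0.040 in the non-pregnant cows, a difference of -0.18 (exact permutation p = 0.514, adjusted 0.514), which was -0.12 with normexp, -0.36 with the floor halved and -0.068 from the software signal. With 4 against 3 cows the smallest possible p is 0.0286. No ratio separated the groups. Over the pregnant cows the ratio of miR-20a to miR-19b ranged over 0.84, that of miR-19b to miR-92a over 1.66 and that of miR-20a to miR-92a over 2.16. Over the non-pregnant cows these ranges were 0.42, 1.55 and 1.13. The ranges were not tested against each other.

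**Figure D4:**
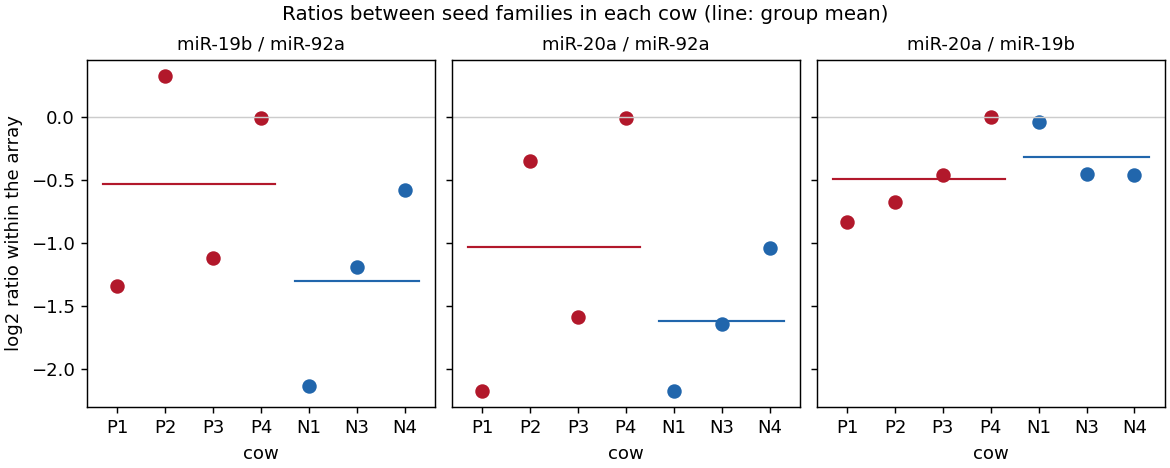
Log2 ratios within an array for 3 pairs of members, 1 point per cow, with group means as bars. Groups overlap in each panel, and pregnant cows 2 and 4 hold the highest values of both ratios to miR-92a.

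A list of 9 other miRNAs on the array held further products of these clusters, those of the related MCM7 intron cluster, and miR-92b, a seed relative of miR-92a from another locus. Of these, miR-17-3p, miR-18a, miR-18b, miR-20b, miR-92b and miR-363 were called in no cow, as held for 620 of the 744 miRNAs on the array. miR-93 was called in pregnant cows 2 and 4 only. miR-25 and miR-106b, both from the MCM7 intron cluster, were the 2 tested. miR-25, with the seed of miR-92a, had a software signal of 23.4, 42.2, 42.9 and 36.8 in the pregnant cows and of 8.65, 23.5 and 14.4 in the non-pregnant cows. These overlapped, since pregnant cow 1 lay just under non-pregnant cow 3. Its log2 difference was 0.64 (SE 0.44, limma adjusted p = 0.743), and that of miR-106b, with the miR-17 seed, was 0.61 (SE 0.38, limma adjusted p = 0.743). Neither passed, and both turned negative with normexp.

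Blood cell RNA can enter plasma, and its markers were read in the same arrays. Of the red cell markers, miR-451 and miR-486 were called in all 7 cows and miR-144 in none, and their summed software signal was 46.9 to 75.7 in pregnant and 23.6 to 64.2 in non-pregnant cows. Of the white cell markers, miR-223 was called in all 7, miR-142-5p in 6, miR-150 in 1, and miR-142-3p and miR-155 in none. Their sum was 143 to 423 in pregnant and 55.9 to 170 in non-pregnant cows, and the 2 tested, miR-223 and miR-142-5p, had a median log2 difference of 1.15 with neither past the threshold.

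Of the platelet markers, miR-24-3p and miR-197 were called in all 7 cows, miR-126-3p in 1 and miR-126-5p in none, with a sum of 65.0 to 103 in pregnant and 30.6 to 57.9 in non-pregnant cows. These unscaled sums did not overlap between groups. Most of each sum was miR-24-3p, at 57.0 to 88.7 in pregnant and 23.8 to 52.2 in non-pregnant cows. It was among the 13 of the 88 tested miRNAs (14.8%) with an unscaled software signal higher in every pregnant cow. On the scaled level the log2 difference was 0.67 for miR-24-3p and -0.17 for miR-197, neither past the threshold, and the software signals of miR-197 overlapped. Of the liver markers, used as a check of plasma, miR-122 was called in 6 cows and miR-192 in 3, with a sum of 0 to 51.2 and of 3.26 to 21.9. The part of blood cell RNA in the signals of miR-19b, miR-20a and the other members was not tested.

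For the 3 members detected in all 7 cows, the miRNAs most like them were those with the smallest root mean square difference of centred log2 level over the 7 arrays, among the 39 others detected in all cows. For miR-20a these were miR-223 (0.255), miR-25 (0.441) and miR-24-3p (0.458), and its distance to miR-19b was 0.284. For miR-19b they were miR-223 (0.378), miR-25 (0.387) and miR-423-5p (0.531). For miR-92a they were miR-486 (0.305), miR-451 (0.370) and miR-2316 (0.385). The scaled level of miR-451 was at the floor in pregnant cow 3 and non-pregnant cow 4. From the software signal miR-486 stayed the nearest to miR-92a (0.307), followed by miR-4286 (0.332) and miR-29a (0.351). The distance of miR-92a to miR-451 was then 0.669.

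miR-20a was the nearest of all to miR-19b, while miR-92a ranked 10 of 39 from miR-20a and 12 of 39 from miR-19b. From miR-92a, miR-19b and miR-20a ranked 30 and 31 of 39. The distance also depends on how far each miRNA spreads over the arrays, so a rank does not measure the order of cows alone. The root mean square of the centred level was 1.01 for miR-20a, 0.955 for miR-19b and 0.674 for miR-92a. Leaving out 1 cow at a time, miR-223 remained the nearest non-member to miR-20a in 6 of 7 cases and to miR-19b in 4, and miR-486 to miR-92a in 5. Without non-pregnant cow 1 the nearest to miR-92a was miR-29a, and without non-pregnant cow 4 it was miR-3141. These are descriptions over 7 arrays that share a slide and differ in brightness.

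**Figure D5:**
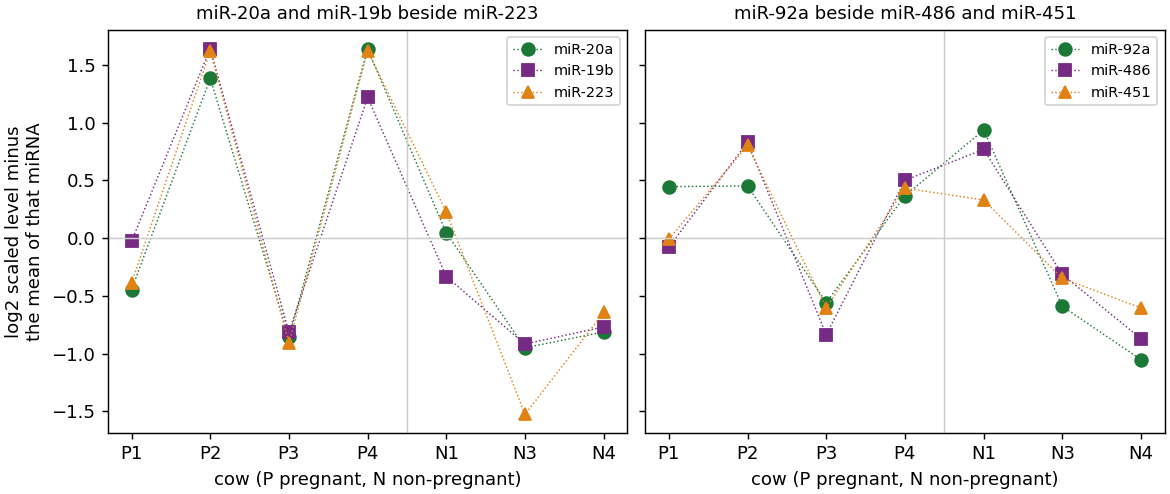
Centred log2 scaled level by cow for miR-20a and miR-19b beside miR-223 (left) and miR-92a beside miR-486 and miR-451 (right), where dotted lines join the points of one miRNA and imply no order of cows. miR-20a and miR-19b are highest in pregnant cows 2 and 4, and miR-92a in non-pregnant cow 1.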

How the data were processed

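Plasma miRNA of 7 cows was measured on one-colour Agilent arrays. The labels' protocols name a serum and plasma extraction kit and 50 ng of RNA labelled with Cy3. The deposited scanner files hold intensity per spot, background-subtracted within each array and unscaled between arrays, and an intensity per miRNA, per the file headers (Agilent Feature Extraction 11.0.1.1). A log2 table of the same arrays came from the authors as well. In the 730 miRNA names that matched, it equals log2 of the intensity per miRNA plus 3.32 and is blank where a miRNA was not detected. The meaning of the constant is not stated in these sources.

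Control spots and those marked as outliers were dropped; none was saturated. The mean of a probe's remaining spots (10 placed per array) was scaled by the 75th percentile, within its array, of the 57 probes that every array detected, then floored at a scaled value of 0.0122 and put on the log2 scale. A miRNA is the mean of its probes. The 88 miRNAs detected in at least 3 cows were compared with limma 3.58.1, run in R 4.3.3 (two-sided moderated test from lmFit and eBayes, no covariate, Benjamini-Hochberg threshold 0.05). The fit was tested on simulated data. Ratios were compared with exact permutation tests. Where a fit used the deposited table, cows with a blank value were dropped for that miRNA. The labels do not say more than that the samples are separate cows, and the number of arrays limits the precision.

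Named miRNAs were all members, the tested miRNAs of the same and related clusters, fixed marker lists, and for each member detected in all cows the 3 most alike. The members and lists were chosen with earlier results of these data known. Scaling, background correction, spot summary, filter, floor, cow number as a block and leaving out each cow were varied.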

Additional observations from a re-analysis of the deposited data

Results flagged for a closer look

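The scaled log2 level of miR-92a in pregnant cow 3 was -4.69, while the other 3 pregnant cows lay between -3.77 and -3.68. Its gap to the nearest of them was 0.915 of the group's range, above Dixon's 95% critical value for 4 samples. It was the only value that passed in 10 groups of values, each checked at both ends, and chance alone passes about 1 in 20 groups. For miR-17-5p, miR-19a and miR-106a, pregnant cows 1 and 3 were both at the floor, so the low end could not pass. Pregnant cow 3 had the brightest array and the highest unscaled miR-92a signal, 99.3.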

How the results depend on the processing

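No alternative called any miRNA past the adjusted threshold: the count stayed at 0 in all 20 alternatives, and the count at an unadjusted p under 0.05 ran from 0 to 11 (limma; 11 without pregnant cow 3). With normexp background correction the log2 difference reversed for miR-17-5p (-0.20), miR-20a (-0.036), miR-19a (-0.12), miR-92a (-0.042), miR-25 (-0.052) and miR-106b (-0.15). Only 8 of the 88 tested miRNAs (9.09%) were positive in that setting, and the cause was not tested. No other alternative changed the sign of a member's difference. Leaving out each cow in turn, the difference was 0.80 to 1.62 for miR-19b, 0.60 to 1.43 for miR-20a, 0.49 to 0.998 for miR-19a, 0.21 to 0.48 for miR-17-5p and 0.0038 to 0.997 for miR-92a. The mean number of members detected differed by 1.0 to 2.0, and the log2 ratios by 0.35 to 1.12 (miR-19b to miR-92a), 0.25 to 0.97 (miR-20a to miR-92a) and -0.34 to -0.037 (miR-20a to miR-19b). Whether cow numbers pair the samples was left unsettled, since only 3 numbers occur in both groups. The correlation of deviations of same-numbered cows ran from -0.20 to 0.65. Of the 3 non-pregnant cows, 1 correlated best with its own number. The number was also the column of the array on the slide, so number and column cannot be told apart. With number as a replicate block the differences were 0.80 for miR-19b, 0.68 for miR-20a and 0.32 for miR-92a, none past the threshold. Scaling to the 75th percentile over all probes could not be run, since that divisor was as low as -0.291. Signals of miR-17-5p, miR-19a and miR-106a lay near background, and 7 cows limit every comparison.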
